A study of Mus musculus with 70 samples.

Results

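Haemoglobin and red cell genes were followed through 70 libraries of mouse brain regions and embryonic stem cells. The set held 8 genes of the 34677 with gene-level TPM. It was fixed by name and not by level: the 4 adult-type globins Hba-a1, Hba-a2, Hbb-bs and Hbb-bt, the 3 embryonic globins Hba-x, Hbb-y and Hbb-bh1, and the red cell enzyme gene Alas2. TPM (transcript abundance relative to the library's total) is scaled for transcript length within a library, so levels of different genes can be set side by side.

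The libraries came from 18 adult brain regions (57 libraries), 4 embryonic brain regions (9 libraries) and 2 lines of mouse embryonic stem cells, termed mESC (4 libraries), 24 groups in all, to ask where genes linked to energy balance and obesity are expressed. Adult tissue was punched from frozen brain sections of male C57BL/6 mice at P56 and embryonic tissue from C57BL/6 embryos at E14.5, both of the substrain C57BL/6NTac by the study's methods. The adult regions were the frontal pole cortex (FRP), anterior cingulate area (ACA), entorhinal area (ENT), nucleus accumbens (ACB), ventral tegmental area (VTA), the hypothalamic nuclei ARH, DMH, LHA, PVH and VMH, the hindbrain nuclei PB, NTS and DVC, and in the cerebellum CENT2, CUL4-5, UVU, the cerebellar nuclei (CBN) and the flocculus (FL). The embryonic regions were the forebrain (F, 1 library), the terminal and peduncular hypothalamus (THy/PHy), the midbrain (M) and the hindbrain (H). The cell lines were the C57BL/6 clones B6-1 and B6-2, collected after growth without feeder cells. By the study's methods their medium at that step held leukaemia inhibitory factor and further small-molecule compounds. The labels name no altered allele and no agent in any group. Each brain library combined punches of several animals, except for 1 ACB library from 1 mouse, and libraries shared mice, so the spread between replicates is that between pools. No source used here describes washing blood out of the vessels. Adult and embryonic libraries were collected in separate batches, so stage and batch cannot be told apart.

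Haemoglobin, the oxygen carrier of red blood cells, is built from a pair of alpha-type and a pair of beta-type chains, each holding a haem group. Mice make the embryonic chains zeta (Hba-x), epsilon-y (Hbb-y) and beta-h1 (Hbb-bh1) in the primitive red cells that arise in the yolk sac, while red cells made later in the fetal liver and in bone marrow carry the adult-type chains. Alas2 encodes the red cell form of the first enzyme of haem synthesis, and young red cells keep mRNA of these genes after they lose their nucleus.

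The alpha-type genes lie together on the plus strand of chromosome 11 (GRCm38, GENCODE annotation), Hba-x at chr11:32276400-32278116, Hba-a1 at chr11:32283511-32284465 and Hba-a2 at chr11:32296489-32297298. The beta-type genes lie on the minus strand of chromosome 7, Hbb-bt at chr7:103812524-103813996, Hbb-bs at chr7:103826534-103828096, Hbb-bh1 at chr7:103841637-103843164 and Hbb-y at chr7:103851749-103853216. Alas2 lies on the plus strand of the X chromosome (chrX:150547375-150570638). Each globin gene has a main transcript of 3 exons, and that of Alas2 has 11. Members of the adult pairs are near copies of each other. Of the 33-base words (the read length) in the main transcript of Hba-a2, 90.6% also occur in Hba-a1, and 66.8% of those in Hbb-bs also occur in Hbb-bt. The split between Hba-a1 and Hba-a2, and between Hbb-bs and Hbb-bt, is therefore uncertain, and sums are given beside the single genes.

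The 130 bases before the RefSeq start (GRCm38.p6) of 5 members are printed 5′ to 3′ to set adult-type and embryonic globins beside Alas2. Capitals mark 4 short words on either strand. They are CACCC, which Klf1-type factors bind, then the promoter word CCAAT, then GATAA, which GATA factors bind, and the start-site word TATAA.
Hba-a1 (chr11:32283542-32283671, plus strand): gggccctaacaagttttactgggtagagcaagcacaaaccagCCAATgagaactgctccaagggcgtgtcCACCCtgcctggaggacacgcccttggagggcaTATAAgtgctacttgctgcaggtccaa
Hba-x (chr11:32276470-32276599, plus strand): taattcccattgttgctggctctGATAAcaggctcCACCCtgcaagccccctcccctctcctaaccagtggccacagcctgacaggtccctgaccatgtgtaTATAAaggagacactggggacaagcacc
Hbb-bs (chr7:103827929-103828058, minus strand): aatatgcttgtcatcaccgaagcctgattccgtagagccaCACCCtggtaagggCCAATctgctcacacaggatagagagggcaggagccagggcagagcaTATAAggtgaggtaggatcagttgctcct
Hbb-y (chr7:103853208-103853337, minus strand): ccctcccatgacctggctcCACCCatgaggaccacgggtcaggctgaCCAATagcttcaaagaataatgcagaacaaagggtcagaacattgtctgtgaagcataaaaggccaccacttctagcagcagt
Alas2 (chrX:150547287-150547416, plus strand): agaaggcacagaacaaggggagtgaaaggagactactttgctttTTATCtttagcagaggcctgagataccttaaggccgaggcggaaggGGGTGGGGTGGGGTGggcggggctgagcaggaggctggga
Hba-a1 and Hba-a2 were the same at 127 of 130 aligned positions of this window, and Hbb-bs and Hbb-bt at 102. CACCC was present in all 7 members that had a promoter sequence, against 33.7% of 32851 mouse promoter windows of the same length. CCAAT was present in 5 of the 7 (22.4% of all windows), TATAA in 5 (12.7%) and GATAA in 2, Hba-x and Alas2 (11.4%). Hbb-y had no TATAA and Hba-x no CCAAT in this window. 

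Total estimated counts were 13409041 to 20647884 per adult library, 9074581 to 22229582 per embryonic library and 12985081 to 18501667 per mESC library. The lowest total, 9074581, was that of H replicate 1, where 22.6% of TPM was mitochondrial, the second highest share of any library. The labelled tissues held their markers. Pou5f1, the pluripotency factor, was at 989.8 to 1081 TPM in mESC and at most 4.27 TPM in the brain, and the neuronal gene Snap25 had a median of 2002 TPM in adult brain, 86.4 TPM in embryonic brain and at most 0.413 TPM in mESC. In VTA replicate 1, 39.6% of TPM was mitochondrial (median of all libraries 7.49%). There Hba-a1 was at 185.8 TPM, where VTA replicates 2 and 3 had 464.6 and 215.9 TPM, and Alas2 at 1.95 TPM, where they had 5.26 and 2.93 TPM.

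The adult-type globins were detected in all 66 brain libraries and were at or near 0 in mESC, which are cultured cells. Hba-a1 was at 139.2, 429.1 and 2770 TPM (lowest, median and highest of 57) in adult libraries, at 1395, 2997 and 4444 TPM in the 9 embryonic libraries, and at 0, 0.536, 0.660 and 1.23 TPM in the 4 mESC libraries. The embryonic libraries stood above every adult library outside FL. Hba-a2 was at 98.9, 299.4 and 1274 TPM in adult libraries and at 1099, 1573 and 2182 TPM in embryonic libraries, where only 1 adult library, in FL, reached the lowest embryonic one. Hbb-bs was at 123.8, 381.0 and 2034 TPM in adult libraries and at 722.9, 1088 and 1688 TPM in embryonic libraries. Here the stages overlapped, with 15 of the 57 adult libraries, 11 of them outside FL, at or above the lowest embryonic one. Hbb-bt was at 42.3, 162.2 and 1149 TPM in adult libraries and at 440.7, 905.1 and 1490 TPM in embryonic libraries. Only 5 adult libraries, 4 of them in FL, reached the embryonic range. Alas2 was at 1.88, 5.47 and 24.4 TPM in adult libraries, at 9.52, 11.5 and 22.2 TPM in embryonic libraries, and at 0.460 to 1.02 TPM in mESC. For Alas2 the stages overlapped as for Hbb-bs, with 12 adult libraries, 8 of them outside FL, at or above the lowest embryonic one.

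**Figure D1:**
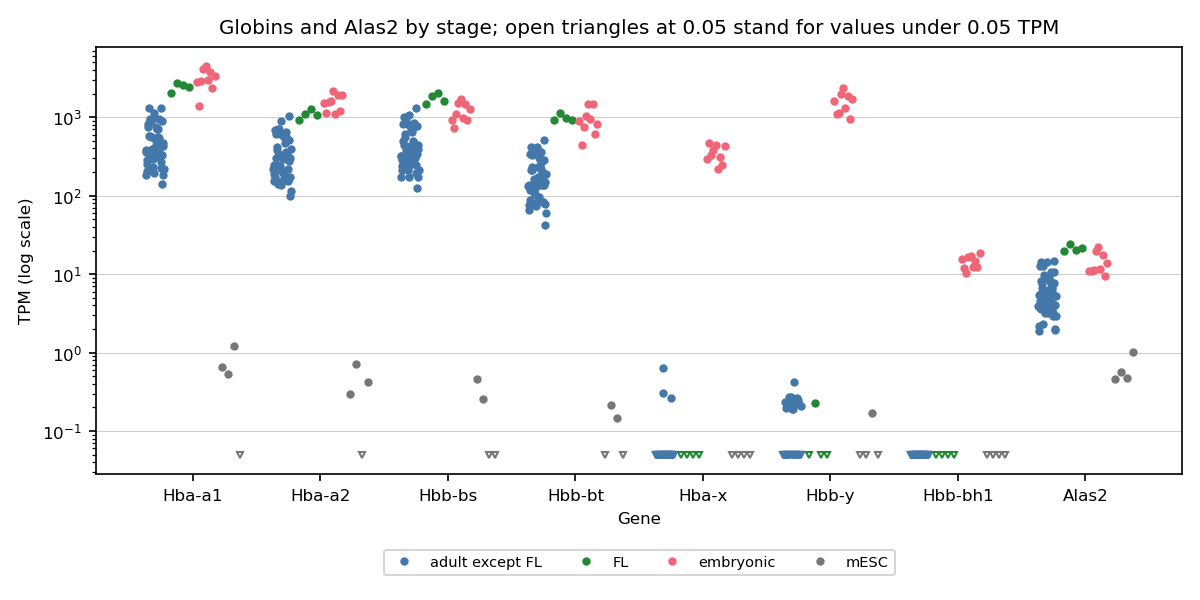
TPM of each member in every library on a log axis, in adult regions except FL (blue), FL (green), embryonic regions (red) and mESC (grey); open triangles at the base stand for values under 0.05 TPM. Adult-type globins reached 4444 TPM (Hba-a1) in embryonic brain, and the 3 embryonic globins rose above 0.645 TPM only in the 9 embryonic libraries.

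The embryonic globins separated the stages without overlap. Hbb-y, the most abundant of them, was at 942.3, 1618 and 2348 TPM (lowest, median and highest of 9) in embryonic libraries, above the median of Hbb-bs in the same libraries. Hba-x was at 221.1, 330.7 and 473.6 TPM and Hbb-bh1 at 10.5, 14.9 and 18.5 TPM. In the 57 adult libraries Hbb-y was listed above 0 in 16, at most at 0.426 TPM, Hba-x in 3 (DMH replicates 2 and 3 and PVH replicate 1), at most at 0.645 TPM, and Hbb-bh1 in none. These adult values were 1 or 2 counts per library. In counts and CPM (counts scaled to the library total), Hba-x had 4 over all adult libraries, 0.00410 CPM (95% exact Poisson interval 0.00112 to 0.0105), against 110.1 CPM in embryonic brain, a ratio of 26874 (10496 to 98633). Hbb-y had 17 counts over all adult libraries, 0.0174 CPM (0.0101 to 0.0279), against 441.7 CPM in embryonic brain, a ratio of 25375 (15848 to 43559). Hbb-bh1 had 571 counts in the embryonic libraries, 3.90 CPM, and 0 in the adult ones, so that against a floor of 3 counts over all adult libraries it was at least 1269.95-fold higher in embryonic brain. Of the 3 genes, mESC libraries held 1 count, of Hbb-y. Against the floor of 3 counts over the 4 mESC libraries, Hba-x was at least 2447-fold and Hbb-bh1 at least 86.7-fold higher in embryonic brain. These intervals and floors cover counting error only.

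Whether the members differed between the stages was tested with edgeR's quasi-likelihood test on estimated counts, with the mean of the 4 embryonic regions set against the mean of the 18 adult regions. A gene was called at a Benjamini-Hochberg adjusted p under 0.05 over 19980 genes and a log2 fold change beyond 1. All 8 members were called higher in embryonic brain, against 17.8% of all genes tested. Of these, Hba-x, Hbb-y and Hbb-bh1 had so few adult counts that they passed the filter on low counts only through the embryonic libraries and had to differ, so the other 5 members are the ones to set against that share. The log2 fold change was 2.57 (SE 0.16) for Hba-a1, with an adjusted p of 2.6e-20 by edgeR. It was 2.21 (SE 0.19) for Hba-a2 and 2.27 (SE 0.18) for Hbb-bt. The changes of Hbb-bs, 1.31 (SE 0.19), and of Alas2, 1.30 (SE 0.19), were smaller, with adjusted p values by edgeR of 1.3e-08 and 2.0e-08. With the near copies summed, the log2 fold change was 2.46 for Hba-a1 and Hba-a2 and 1.71 for Hbb-bs and Hbb-bt. With DESeq2 the number called was 7, as Hbb-bh1 had an adjusted p of 0.109 there. In bulk samples such as these, fewer red cells and less mRNA in each red cell cannot be told apart.

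All 8 members were also called higher in embryonic brain than in mESC, by the same rule, as were 29% of all genes. The 7 globins had at most 7 counts in any mESC library. They passed the filter on low counts only through the brain libraries and had to differ. Only Alas2, at 4 to 9 counts per mESC library, can be set against that share. DESeq2 called 7 of the 8, with an adjusted p of 0.357 for Hbb-bh1. The mESC libraries stood at or under 1.23 TPM for every member.

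The lists of other globins and of red cell genes showed which partners moved with the members. Over all genes tested the median log2 fold change between the stages was 0.00, with 17.8% called higher and 19.9% called lower in embryonic brain. Of the other globins, which are the alpha-like Hbq1a, Hbq1b, the beta-like Hbb-bh2, muscle myoglobin Mb, neuroglobin Ngb and cytoglobin Cygb, 5 were tested. None was called higher and 2 were called lower in embryonic brain: Ngb (median 0.603 TPM embryonic and 6.17 TPM adult) and Cygb (8.61 and 69.1 TPM). Mb, at medians of 0.520 and 1.07 TPM, was not called. Hbq1a was at most 3.94 TPM and Hbq1b at most 2.97 TPM in any library, and Hbb-bh2, which was too low to test, was listed at 0 in all adult and mESC libraries and reached 0.534 TPM in embryonic brain.

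Of the erythroid transcription factors, 7 of 10 tested were called higher and 1 lower in embryonic brain, with a median log2 fold change of 1.82. Gata1, the main red cell factor, had a median of 0.313 TPM in embryonic and 0 TPM in adult libraries (log2 fold change 4.27, SE 0.47). Nfe2, which activates globin genes, was at 0.498 to 4.33 TPM in embryonic and at most 0.659 TPM in adult libraries (3.72, SE 0.29), and Tal1, which acts with Gata1 and also in neurons, at 4.01 and 1.02 TPM (2.66, SE 0.21). Gata1 and Nfe2 were as well present in mESC, which are cultured cells, at 0.435 to 2.20 and 0.737 to 1.78 TPM. Tal1 was at most 0.341 TPM there. Lmo2 (log2 fold change 0.44) and Zfpm1 (-0.49) were not called. The gene called lower was Zbtb7a (11.6 TPM embryonic and 62.4 TPM adult), and Bcl11a, which is also a factor of young neurons, was among those called higher (93.1 and 15.4 TPM). Of the red cell membrane and surface genes, 7 of 13 tested were called higher and 5 lower (median 1.51). The anion exchanger Slc4a1 was at 11.7 TPM in embryonic and 0.584 TPM in adult libraries (medians; log2 fold change 4.18, SE 0.17) and Kel, a blood group antigen, at 1.68 and 0 TPM (5.26, SE 0.45). The 5 called lower included the skeleton genes Ank1 (13.1 TPM embryonic and 122.8 TPM adult) and Sptb (7.92 and 57.7 TPM), which neurons express too, beside Tspan33, Icam4 and Epor. Of the remaining red cell proteins, 3 of 12 tested were called higher and 0 lower (median -0.06), among them Trim10 (0.888 and 0.0580 TPM) and the peroxidase Prdx2 (1114 and 489.7 TPM).

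Genes of haem synthesis other than Alas2 did not share its direction: 0 of 13 were called higher and 2 lower, with a median log2 fold change of -0.50. Those called were Cpox (6.75 TPM embryonic and 21.9 TPM adult) and ferrochelatase Fech (14.8 and 34.7 TPM), while Alas1, the form of the enzyme used outside red cells, was at 50.4 and 81.7 TPM and was not called. Platelet genes were called higher in 2 of 5 (Pf4, 13.7 and 1.78 TPM, and Ppbp, 1.78 and 0.224 TPM), and leukocyte genes higher in 3 and lower in 1 of 8. Endothelial genes were called higher in 2 and lower in 3 of 9, and mural cell genes in 0 and 1 of 6. Meningeal fibroblast genes were called higher in 5 of 5, their summed level being 218.7 to 1835 TPM in embryonic and 20.2 to 309.3 TPM in adult libraries, and choroid plexus genes higher in 4 and lower in 1 of 5. Neuronal genes were called higher in 1 and lower in 3 of 4, dopamine neuron genes in 0 and 2 of 4, and pluripotency genes in 1 and 0 of 4. The part of these other cells in the globin difference was not tested.

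Among adult regions FL stood apart. Summed adult-type globin was 5362, 6402 and 6865 TPM (lowest, median and highest of 4) in FL, above all 53 other adult libraries, whose highest was 4167 TPM in UVU replicate 1. Hba-a1 was at 2036, 2770, 2545 and 2411 TPM in FL replicates 1 to 4 and at most 1314 TPM elsewhere in adult brain. Hbb-bs was at 1461, 1856, 2034 and 1589 TPM in those libraries and at most 1314 TPM elsewhere. Alas2 was at 19.5, 24.4, 20.5 and 21.6 TPM in FL and at most 14.8 TPM elsewhere. For Hba-a2 the ranges touched, with 931.4 to 1274 TPM in FL and up to 1034 TPM elsewhere.

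By edgeR, 5 of the 8 members were called higher in FL than in the mean of the other 17 adult regions, against 7.01% of all genes. The log2 fold change was 2.36 (SE 0.21) for Hba-a1, 1.77 (SE 0.26) for Hba-a2, 2.03 (SE 0.23) for Hbb-bs, 2.48 (SE 0.22) for Hbb-bt and 1.95 (SE 0.23) for Alas2. The largest adjusted p of the 5 was 1.7e-07 (edgeR). The embryonic globins, nearly without counts in adult brain, were not called: in FL, 1 library held Hbb-y, at 0.227 TPM, and Hba-x and Hbb-bh1 were at 0. Library numbers in the sample names fall into runs that match the collection batches listed by region in the study. FL had 1 library in each of 4 adult runs, and with the run as a block its log2 fold changes were 1.90 (Hba-a2) to 2.53 (Hbb-bt).

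**Figure D2:**
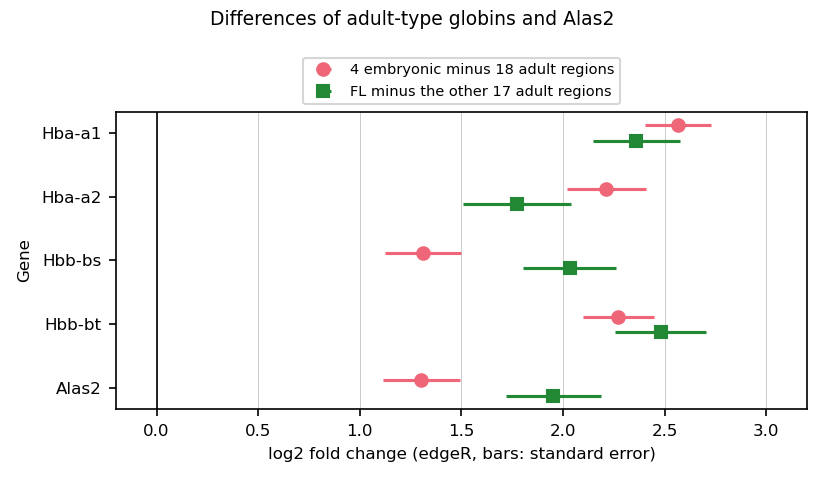
Log2 fold changes with standard errors (edgeR) of the adult-type globins and Alas2, for embryonic against adult regions (red circles) and for FL against the other 17 adult regions (green squares). Hbb-bs and Alas2 had the smaller changes with stage, 1.31 and 1.30, and in FL all 5 genes lay between 1.77 and 2.48.

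Lists of markers of other blood and border cells also held genes called higher in FL. Leukocyte markers were called higher in FL for 7 of 8 tested, with a median log2 fold change of 3.24 against 0.01 for all genes tested. Their summed level was 34.5 to 70.2 TPM in FL and 5.38 to 33.8 TPM in the other adult libraries. The neutrophil gene S100a8 had a median of 8.54 TPM in FL and 0.751 TPM in all adult libraries, and Ngp 1.49 and 0.106 TPM. Ptprc, the pan-leukocyte antigen, was not called, at 1.24 and 1.13 TPM. Red cell membrane genes were called higher in 7 and lower in 1 of 13 (median 1.57), red cell proteins in 3 and 0 of 12, platelet genes in 2 and 0 of 5, and erythroid factors in 2 and 0 of 10. Meningeal fibroblast genes were called higher in 3 of 5 (summed 144.9 to 256.5 TPM in FL and 20.2 to 309.3 TPM elsewhere). Choroid plexus genes were called higher in 5 of 5, and their summed level in FL ran from 36.7 to 3065 TPM, against 1.02 to 12752 TPM elsewhere. Endothelial, mural and haem synthesis genes had 0 called in either direction, and 4.55% of all genes were called lower in FL. Their median log2 fold changes were 0.22, 0.52 and 0.08. Every mural gene was higher in FL at an adjusted p under 0.05 (edgeR) but under the fold threshold, from 0.20 (Rgs5) to 0.84 (Tagln). So were the endothelial genes Cldn5, Cdh5, Ly6c1 and Esam, from 0.31 (Cdh5) to 0.43 (Cldn5). The same held for the haem synthesis genes Alas1, Urod, Cpox, Ppox and Tfrc, from 0.17 (Alas1) to 0.42 (Tfrc). The other genes of these last lists had adjusted p values above 0.05. Neuronal genes also had 0 called, dopamine neuron genes had 4 of 4 called lower, and 1 of 4 pluripotency genes, Esrrb, was called higher. What part these cells had in the globin level was not tested.

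**Figure D3:**
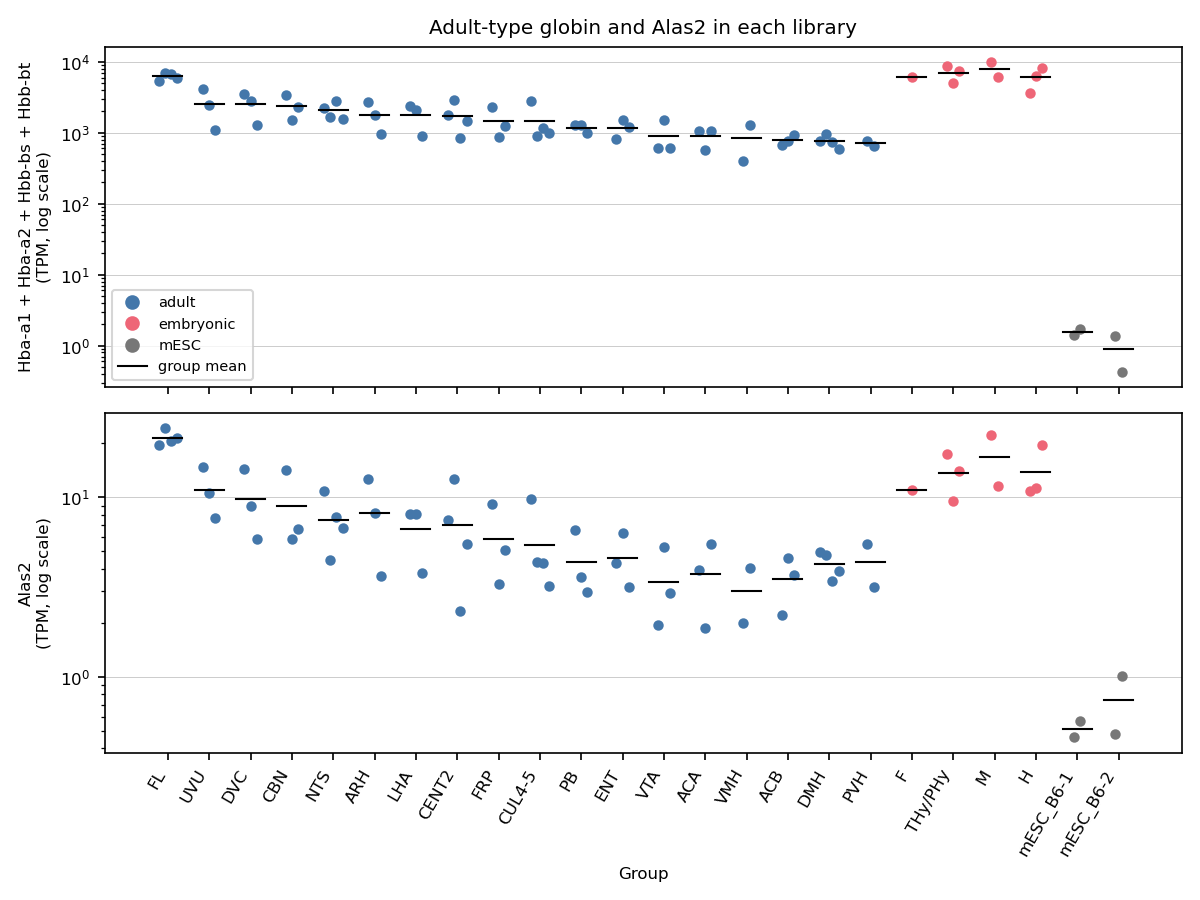
Summed adult-type globin (upper panel) and Alas2 (lower panel) in TPM on log axes, 1 point per library and a line at each group mean, with adult regions ordered by mean globin. FL (5362 to 6865 TPM) lies level with the embryonic regions (3684 to 9783 TPM), and mESC lie at the bottom.

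Below FL the adult regions formed a continuous order in which neighbours overlapped. Mean summed adult-type globin ran from 2575 ± 1542 TPM in UVU (SD, n = 3), 2532 ± 1140 in DVC (n = 3) and 2375 ± 934.3 in CBN (n = 3) to 759.5 ± 148.2 in DMH (n = 4) and 712.3 ± 74.6 in PVH (n = 2). In 16 of the 17 neighbouring pairs of the order the ranges of the libraries overlapped, the exception being FL and UVU. Libraries of a single region differed widely, as in UVU, where replicates 1, 2 and 3 had 14.8, 10.6 and 7.70 TPM of Alas2 and 1301, 889.3 and 331.5 TPM of Hba-a1.

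A joint edgeR test among the 18 adult regions called 5 of the 8 members, the 4 adult-type globins and Alas2, against 80.9% of all genes tested, so that being called here does not set the members apart. Of the pairs of 1 of the 8 members and 1 of the 18 regions, 6 were called higher than the other adult regions (background 6.53% of pairs), 5 of them in FL and the other Hba-a1 in CBN (log2 fold change 1.04, SE 0.28). Called lower were 7 pairs (background 4.33% of pairs), which were all 4 adult-type globins in DMH (-1.02 to -1.13), Hba-a1 and Hbb-bt in ACB and Hbb-bt in PVH. The embryonic globins, nearly without adult counts, were called in no region. As a share of all pairs of the members, the higher calls were under their background and the lower calls near theirs. The numbers of pairs called thus do not set the members apart. The lower calls depended on the model. They numbered 12 with the run of library numbers as a block, 2 with limma on log2(TPM + 0.5) and 0 with a pseudocount of 0.1.

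The level within a region moved with the run of library numbers. After subtracting the region mean, log2 summed adult-type globin averaged 0.20 ± 0.37 in run 1 (SD, n = 11), 0.42 ± 0.41 in run 2 (n = 15), -0.34 ± 0.44 in run 3 (n = 14), -0.17 ± 0.38 in run 4 (n = 15) and -0.71 ± 0.46 in run 5 (n = 2). Alas2 averaged 0.30, 0.31, -0.35, -0.13 and -0.54 in the same runs. In run 2, 13 of 15 libraries stood above the mean of their region, and in run 3, 4 of 14.

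Among the 4 embryonic regions no member was called. Summed adult-type globin was 6174 TPM in F, 3684 to 8206 TPM in H, 6040 to 9783 TPM in M and 5102 to 8682 TPM in THy/PHy, ranges that overlapped, and Hbb-y was at 1618 TPM in F, 1103 to 1992 in H, 1317 to 2348 in M and 942.3 to 1892 in THy/PHy. The joint edgeR test called 0 of the 8 members, against 51.4% of all genes. At an unadjusted p under 0.05 the number was also 0, and DESeq2 and limma called 0. With 1 library left out, limma called 1 member: Hbb-bh1 without H replicate 3, M replicate 2 or THy/PHy replicate 2, and Hba-x without M replicate 1. H replicate 1 differed from the other 8 embryonic libraries in its alpha chains, with Hba-x at 15.8% of alpha-type TPM, where the others had 5.12% to 7.56%. It also had the lowest total count of all libraries and 22.6% mitochondrial TPM, and the part of library quality in this difference was not tested.

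To compare matched regions, the stage difference in the hypothalamus (THy/PHy against ARH, DMH, LHA, PVH and VMH) was set against that in the hindbrain (H against DVC, NTS and PB). For the 3 embryonic globins, with hardly any adult counts, this test is void. By edgeR 0 of the other 5 members were called, against 30.5% of all genes, and DESeq2 and limma also called 0. At an unadjusted p under 0.05 there was 1, Hbb-bt, whose stage difference was larger in the hypothalamus by 1.15 (SE 0.51) on the log2 scale, adjusted p 0.078 by edgeR. Without THy/PHy replicate 2 this became 1.38, with an adjusted p of 0.046 by edgeR.

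The make-up of the globin mRNA differed between the stages. Of beta-type TPM in embryonic libraries, Hbb-y made 37.8% to 48.4% (median 42.5%) and Hbb-bh1 0.307% to 0.521%. Hba-x made 5.12% to 15.8% (median 6.38%) of alpha-type TPM. Together the embryonic genes made 19.03% to 30.1% of all globin TPM in embryonic libraries, and at most 0.0782% in adult ones. All 7 globins together took 0.527% to 1.26% of the TPM of an embryonic library, 0.536% to 0.687% in FL and 0.0404% to 0.417% in the other adult libraries.

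The ratio of adult-type alpha to adult-type beta mRNA was narrow in the adult brain, 1.15, 1.32 and 1.503 (lowest, median and highest of 57 libraries). FL lay within this range, at 1.24 to 1.39. In embryonic libraries it was 1.94 to 2.52, above every adult library. Over region means of the log2 ratio, the mean ratio was 2.25 in the 4 embryonic and 1.32 in the 18 adult regions, a difference of 0.76 on the log2 scale. The two-sided exact permutation test over 7315 groupings gave a p of 0.000137, the smallest it can give (adjusted p 0.000171 over 5 ratios). Regions of a stage share mice and runs, so the region means in this and the other permutation tests of ratios are not fully independent. With Hba-x added to the alpha chains and Hbb-y and Hbb-bh1 to the beta chains, a comparison added after the values had been seen, the ratio was 1.36 in embryonic and 1.32 in adult regions. The ratio of all alpha-type to all beta-type globin, embryonic against adult, thus differed by 0.05 on the log2 scale (exact permutation p = 0.127). The difference became 0.0802 with counts scaled to library totals in place of TPM (exact p = 0.0129) and 0.0802 in the matched regions only (exact p = 0.0222).

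**Figure D4:**
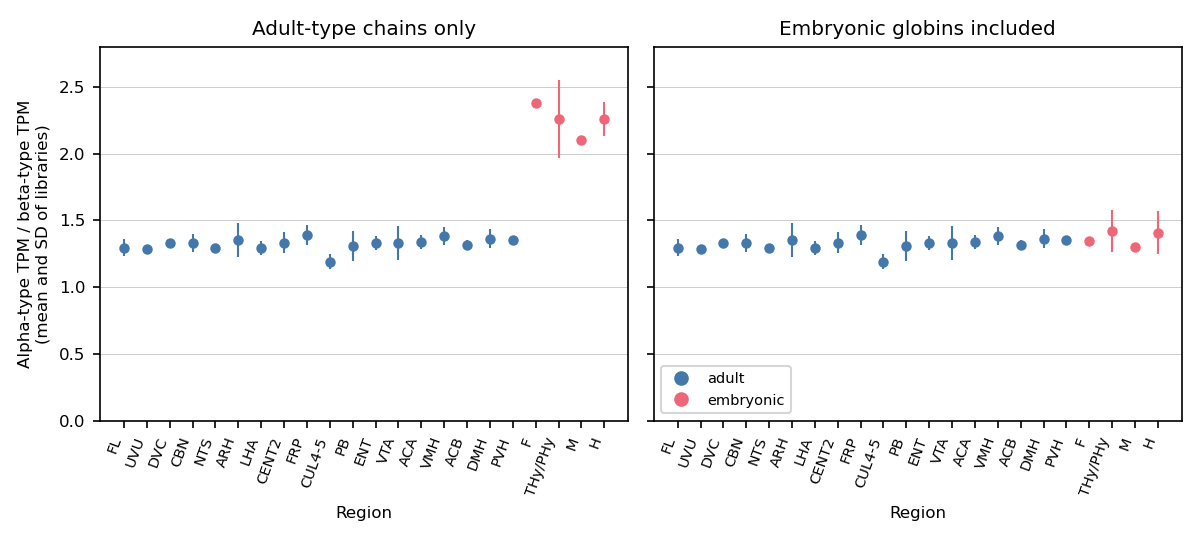
Ratio of alpha-type to beta-type TPM per region (mean and SD of libraries; F has 1 library), with the adult-type chains only (left) and with the embryonic globins included (right). The embryonic regions lie near 2.25 on the left and near 1.36 on the right, where the adult regions lie near 1.32.

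Of the pairs of near copies, the beta-type pair had different proportions at the 2 stages. Hbb-bs exceeded Hbb-bt by 1.69 to 3.53 times (median 2.41) in the 53 adult libraries outside FL and by 1.56 to 2.10 times in FL, while in embryonic libraries the ratio was 0.981 to 1.64 (median 1.44). No adult library outside FL reached down to the embryonic range. Hba-a1 over Hba-a2 overlapped between the stages, at 1.05 to 2.54 in adult and 1.24 to 2.73 in embryonic libraries, and among adult regions was highest on average in CBN (2.33 ± 0.14, SD, n = 3) and FL (2.25 ± 0.23, n = 4). These ratios rest on the reads that tell the copies apart and were not tested.

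Alas2 served as a measure of blood that does not rest on globin reads. In adult libraries globin and Alas2 rose together. Because FL stood apart, the relation is given without it too: Pearson's r of log2(TPM + 0.5) of summed adult-type globin with Alas2 was 0.935 over the 57 libraries (permutation p = 1e-05, the smallest 100000 resamples can give) and 0.900 over the 53 outside FL (permutation p = 1e-05). Spearman's rho over 57 was 0.896 (permutation p = 1e-05). The single globins gave r from 0.912 (Hbb-bt) to 0.939 (Hbb-bs), each with a permutation p of 1e-05 before and after adjustment over the 4. Without the 2 libraries farthest from the median of Alas2, both in FL, r was 0.920. It was 0.863 with region means subtracted and 0.932 with the means of the runs of library numbers subtracted. Libraries share mice and runs and are not fully independent.

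In the 9 embryonic libraries summed globin, all 7 genes, had an r of 0.894 with Alas2 (exact permutation p = 0.000807) and a rho of 0.900 (exact p = 0.00203). By Pearson's r, Hbb-bs (0.915) and Hbb-y (0.913) were highest among the single genes, each with an adjusted exact permutation p of 0.0022. By Spearman's rho Hba-a1 was highest (0.983, adjusted exact p = 0.000347), above Hbb-y (0.950) and Hbb-bs (0.933). Hba-x (r = 0.479, adjusted exact p = 0.188) and Hbb-bh1 (r = 0.673, adjusted exact p = 0.0641) did not pass the test. Without the 2 libraries farthest from the median of Alas2, M replicate 1 and H replicate 3, r of the summed globin was 0.831. With region means subtracted it was 0.934, and with run means subtracted 0.915.

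Relative to Alas2, embryonic libraries held more globin mRNA. Summed adult-type globin was 138.8, 252.0 and 375.6 times Alas2 (lowest, median and highest of 57) in adult libraries and 337.8, 522.7 and 561.4 times in embryonic ones, with FL at 275.0 to 332.6. The ranges overlapped through H replicate 1, the embryonic library lowest in this ratio and also in total count. The other 8 embryonic libraries stood above every adult one. Over region means, adult-type alpha globin was 329.7 times Alas2 in embryonic and 127.2 times in adult regions, a 2.59-fold difference (log2 1.37, exact permutation p = 0.000137, the smallest possible). For adult-type beta globin the ratios were 146.8 and 96.2, a 1.53-fold difference (log2 0.61, exact permutation p = 0.000137). With all 7 globins, a sum added after the values had been seen, they were 615.1 and 223.5, a 2.75-fold difference (log2 1.46, exact permutation p = 0.000137). Adjusted over the 5 ratios, each of these p values was 0.000171. Without FL the differences were 1.39, 0.63 and 1.48 on the log2 scale.

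**Figure D5:**
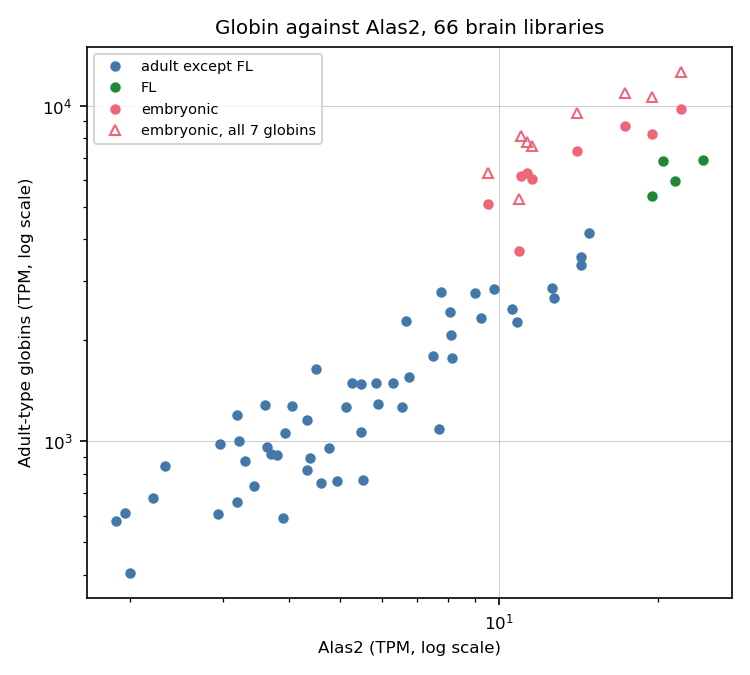
Summed adult-type globin against Alas2 in TPM, log axes, for 53 adult libraries outside FL (blue), 4 of FL (green) and 9 embryonic libraries (red), with open triangles for all 7 globins in embryonic libraries. Adult libraries, FL included, lie along 1 band (r = 0.935), and 8 of the 9 embryonic libraries have more globin for their Alas2 than any adult library, the exception being H replicate 1.

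In adult libraries no gene outside the members followed the adult-type globins as closely as Alas2 did. Among 15483 genes with a mean of at least 1 TPM, the 5 with the highest Pearson r with summed adult-type globin over the 57 adult libraries were Pgm5 (0.781), Fam46c (0.756), Tmem252 (0.752), Vtn (0.730) and Anxa4 (0.726). With members included, only the 4 summed globins themselves had a higher r than Alas2. Fam46c, a poly(A) polymerase gene listed as Tent5c in the count table, was at 0.588 to 4.96 TPM and was also called higher in FL (log2 fold change 1.06, SE 0.22) and in embryonic brain (1.17, SE 0.17). Over the 9 embryonic libraries the genes closest to summed embryonic globin were Mob3c (0.954), Irgm1 (0.934), Nsun3 (0.918), Gm15190 (0.917) and Rarres2 (0.896), of 15472 compared. With so many genes and 9 libraries these values are a description only.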

How the data were processed

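RNA from brain punches and mESC was made into mRNA libraries and sequenced with single reads of 33 bases. The authors quantified transcripts with kallisto on mouse transcripts (GRCm38, after base calling with CASAVA 1.8.2) and deposited estimated counts and TPM per transcript and TPM per gene for each library. Estimated counts, as deposited by the authors, were summed per gene, rounded to whole numbers and tested with edgeR 4.0.16 in R 4.3.3 (TMM scaling, filterByExpr, quasi-likelihood test, 1 mean per group), and 19980 genes passed the filter on low counts. Transcripts with no gene in the annotation took 0.418% to 0.767% of counts and were left out. Sums, ratios and correlations used the deposited TPM with a pseudocount of 0.5 before log2, so fold changes of low genes are understated there. No column of per-sample values was left unused (0 columns). DESeq2 1.42.0, limma 3.58.1 on log2(TPM), other pseudocounts, no filter, blocks for replicate number and for runs of library numbers, summed near copies and left-out libraries were tried as alternatives. On simulated counts for the stage comparison, with 17356 genes, 200 of 200 changed genes were recovered with 0 false calls. The simulation used a single fixed spread, no differences between regions or batches, and a change larger than those of Hbb-bs and Alas2. It therefore checks that the test runs correctly and does not give its power or error rate for these data. Exact permutation tests were two-sided, went through all groupings or pairings and were run in Python with NumPy 2.4.6. Their p values were adjusted with SciPy 1.17.1.

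The members, the lists (other globins, erythroid factors, haem synthesis, red cell membrane, other red cell proteins, leukocytes, platelets, endothelium, mural cells, choroid plexus, meningeal fibroblasts, neurons, dopamine neurons and pluripotent cells) were chosen with earlier results of these data known. In each list up to 3 genes with the largest called stage difference and up to 2 not called were named, and genes named beyond that were chosen after their values were seen. A gene of the red cell membrane list is counted but not reported here. Libraries of different regions share mice and runs of library numbers, so region means are not fully independent. The p-values measure the spread between pools of tissue.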

Additional observations from a re-analysis of the deposited data

Results flagged for a closer look

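In groups of 4 libraries or more, 1 library can lie far from the others by Dixon's criterion, which marks about 1 in 20 groups by chance. Of 35 combinations of a group and a quantity, 6 were marked. Of these, 3 were CUL4-5 replicate 1, where Hba-a1 was at 892.5 TPM, Hba-a2 at 699.8 TPM and Hbb-bs at 885.4 TPM, each above the other 3 libraries of that region. Hbb-y was marked in FL replicate 2 at 0.227 TPM and in NTS replicate 2 at 0.224 TPM, where the other libraries of the region were listed at 0. Each of these values was a single count. A library above 0 beside others all at 0 is always marked, so the rate by chance does not apply to the marks of Hbb-y. The ratio of adult-type globin to Alas2 was marked in FL replicate 3, at 332.6.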

How the results depend on the processing

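No result reversed under any alternative that was run. With near-identical copies summed, which leaves fewer features by construction, 3 members differed among adult regions, 3 pairs of a member and a region were called higher and 2 lower. With the run of library numbers as a block, 12 pairs were called lower, with limma and a pseudocount of 0.5 there were 2, and with 0.1 there were 0, and the cause was not tested. The ratio of all alpha-type to all beta-type globin, embryonic against adult, passed the threshold with CPM (0.0802, exact p = 0.0129) and in matched regions (0.0802, exact p = 0.0222). Leaving out 1 library at a time, with limma only, the pairs called higher numbered 5 to 10 and those called lower 0 to 6 (4 without DMH replicate 2). These counts stand beside the limma calls on all libraries and not beside those of edgeR. Members differing among embryonic regions numbered 0 to 1, and so did members whose stage difference differed between hypothalamus and hindbrain. The limma fits that leave out each library, the fits without FL and the ratios with embryonic globins were chosen after seeing the data. With the replicate block, 8 members were called in both embryonic comparisons, 5 differed among adult regions, and 7 pairs were called higher and 9 lower. Replicate numbers do not pair the samples, as deviations of libraries with the same number had a median correlation of 0.0172. Depth limits the embryonic globins in adult brain, where a library held at most 2 counts.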
